A study of Mus musculus with 18 samples.

Results

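The data are the expression levels of 9 transcription factor genes of monocytes and macrophages, chosen by name from the 20298 genes of an RNA-seq table: *Spi1*, *Cebpa*, *Cebpb*, *Cebpd*, *Klf2*, *Klf4*, *Maf*, *Mitf* and *Tfec*. All 9 were found. The choice used no measured value, but it was made with earlier results of these data known. Ly6C+ CCR2+ monocytes were enriched from bone marrow of mice labelled C57BL/6 and were either WT or DKI, the DKI line being kept on C57BL/6J per the study's methods. DKI mice carry an altered N-domain in both STAT5A and STAT5B, knocked into the genes themselves, so that STAT5 still forms dimers but not tetramers in every cell of the mouse. Cells were left untreated (day 0) or cultured for 3 or 6 days with 20 ng/ml GM-CSF, a cytokine that signals through STAT5 and turns monocytes into monocyte-derived cells. Each of the 6 groups (2 genotypes by 3 days) had 3 libraries, 18 in all. The age of these mice and the number pooled per library are not given in the sources used here. The day 0 cells of each genotype are the untreated controls. No group was cultured without GM-CSF, so effects of GM-CSF, culture and time on changes from day 0 cannot be told apart.

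All 9 genes encode DNA-binding proteins that set the identity of myeloid cells. PU.1, the product of *Spi1*, is an ETS factor without which monocytes and macrophages do not form. The C/EBP proteins are basic leucine zipper factors: C/EBP alpha drives the myeloid progenitor, C/EBP beta supports monocyte survival and inflammatory gene expression, and C/EBP delta amplifies inflammatory responses. KLF2 and KLF4 are zinc finger factors, of which KLF4 is needed for Ly6C+ monocytes and KLF2 keeps myeloid cells quiescent. c-MAF, the product of *Maf*, is a large basic leucine zipper factor of resident macrophages. MITF and TFEC are basic helix-loop-helix leucine zipper factors of the MiT/TFE family, which also holds TFEB and TFE3 and controls lysosome and osteoclast genes.

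Positions are those of RefSeq on GRCm38.p6, the assembly behind mm10, to which the reads were aligned. *Spi1* lies at chr2:91082374-91115759 (plus strand), *Cebpb* at chr2:167688915-167690432 (plus), *Klf4* at chr4:55527137-55532475 (minus) and *Tfec* at chr6:16830927-16898464 (minus). *Mitf* lies at chr6:97807002-98021360 (plus), *Cebpa* at chr7:35119293-35121928 (plus), *Klf2* at chr8:72319062-72321654 (plus), *Maf* at chr8:115703253-115706894 (minus) and *Cebpd* at chr16:15887286-15889545 (plus). *Cebpa*, *Cebpb* and *Cebpd* have a single exon each. Exons of *Cebpb* overlap those of *Tmem189* on the other strand, exons of *Cebpd* those of *Spidr*, exons of *Cebpa* those of the antisense gene *Gm45091* and exons of *Maf* those of the antisense gene *Gm15655*. Whether the counting used strand is not given in the sources used here. Reads in the bases that these 4 genes share with their partners therefore cannot be told apart.

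*Mitf* and *Tfec* are relatives whose levels did not overlap between DKI and WT cells on days 3 and 6, so their promoter sequences are shown, as the 250 bases before each RefSeq start, 5′ to 3′ on the gene's strand. *Mitf* has 3 such starts in the table, at chr6:97806808-97807057, chr6:97929567-97929816 and chr6:97991533-97991782 (plus strand), and *Tfec* has 1, at chr6:16898442-16898691 (minus strand). The first *Mitf* window and the *Tfec* window lie partly inside the gene spans given above, and the other *Mitf* windows wholly inside. The starts used here are thus not the ends of those spans. Capitals mark a match to a searched motif.
Mitf, first start: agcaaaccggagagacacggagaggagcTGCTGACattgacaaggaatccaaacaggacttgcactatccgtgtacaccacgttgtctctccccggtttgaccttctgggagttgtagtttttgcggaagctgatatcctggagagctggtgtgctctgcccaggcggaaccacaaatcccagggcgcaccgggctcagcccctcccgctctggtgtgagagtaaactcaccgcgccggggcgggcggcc
Mitf, middle start: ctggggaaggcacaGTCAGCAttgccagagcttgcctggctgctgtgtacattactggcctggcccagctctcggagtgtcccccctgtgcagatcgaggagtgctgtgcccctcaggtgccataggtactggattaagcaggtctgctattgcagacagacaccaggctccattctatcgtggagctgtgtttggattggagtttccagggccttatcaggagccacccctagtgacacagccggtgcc
Mitf, last start: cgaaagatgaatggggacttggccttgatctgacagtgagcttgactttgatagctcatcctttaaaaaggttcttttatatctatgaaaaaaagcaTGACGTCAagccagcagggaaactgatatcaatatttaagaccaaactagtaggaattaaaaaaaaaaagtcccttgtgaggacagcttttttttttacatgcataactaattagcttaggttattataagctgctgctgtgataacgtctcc
Tfec: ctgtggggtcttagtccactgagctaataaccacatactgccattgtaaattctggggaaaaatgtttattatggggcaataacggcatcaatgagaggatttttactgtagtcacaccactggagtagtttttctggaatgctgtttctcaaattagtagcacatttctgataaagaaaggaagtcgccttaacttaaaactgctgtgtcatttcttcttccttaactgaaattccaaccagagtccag

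The capitals in the first and the middle *Mitf* window are the core of the MAF recognition element, TGCTGAC or its reverse complement, 222 and 236 bases before the start. This core is found in 3.81% of the 32851 promoters of the table. The capitals in the last *Mitf* window are the cyclic AMP response element TGACGTCA, 153 bases before the start, which 1.55% of promoters hold. The *Tfec* window held none of the motifs searched on both strands: the STAT motif TTCNNNGAA (7.02% of promoters), the E-box CACGTG (6.02%), the M-box core TCATGTG (3.25%), the C/EBP motif TTGCGCAA (0.164%), the PU.1 core GAGGAAGT (2.44%), the AP-1 motif TGANTCA (6.75%), the KLF motif GGGTGTGG (3.20%) and the 2 motifs named above. None of these overlaps another in the windows shown. RefSeq promoters were matched for 6 of the 9 members, the others being *Spi1*, *Cebpd* and *Maf*. Among the 6, *Klf4* held the E-box 182 bases before its start, the windows of *Cebpa*, *Cebpb* and *Klf2* held no match, and none of the 6 held the STAT motif. A match is a string of letters and not a binding site.

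Library totals worked out from the table were 29.5 to 43.2 M reads assigned to genes (median 36.4 M). Levels are given as RPKM (reads per kilobase of gene length, scaled to this library total), which allows genes of different length to be compared. The smallest member value, *Maf* in WT day 6 replicate 3, rested on 114 reads, so counting error was small beside the differences between libraries. The labels name liver as the tissue, but the albumin gene *Alb*, with *Ttr* and *Serpina1a*, was listed at 0 in all libraries, and the summed level of 5 hepatocyte genes did not pass 0.047 RPKM. The summed level of 5 monocyte genes (*Ly6c2*, *Ccr2*, *Csf1r*, *Itgam*, *Cx3cr1*) was 1602 to 2736 RPKM in WT and 1708 to 2477 in DKI day 0 libraries. Genes of granule-forming progenitors were also present on day 0, with a summed level of 752 to 1492 RPKM in WT and 813 to 1478 in DKI libraries. In bulk RNA, fewer cells of a type and less RNA per cell cannot be told apart. Replicate 1 of days 3 and 6, in both genotypes, has an earlier year in its library name than the other libraries. DKI replicate 1 stood apart on day 3, where *Ly6c2* was 775 RPKM against 49.5 and 73.8 RPKM in the other DKI libraries and *Bst2* was 1231 RPKM against 241 and 116 RPKM. Results for the members that rest on it are given with and without it.

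Before GM-CSF, the 9 genes differed less between the genotypes than between libraries of 1 genotype. With GM-CSF, *Maf* was higher in all DKI libraries than in all WT libraries, at 11.8 or more times the WT level in each same-numbered pair. Differences were tested with limma on log2(RPKM + 1) over all genes with a mean above 2 RPKM in a compared group, and a gene was called at a Benjamini-Hochberg adjusted p under 0.05 with a fold change above 1.5. Because of the added 1, this scale shrinks the fold changes of low genes. On day 0, 0 of the 9 members were called and 0 had an unadjusted p under 0.05, as against 0% of 9179 genes called and 0.479% with an unadjusted p under 0.05. Limma's voom on reads recovered from the RPKM values also called 0 genes, while a fit of all 18 libraries called 6, all higher in DKI cells. On day 3, *Maf* and *Tfec* were called higher in DKI cells, 2 of 9 members beside 3.21% of 9740 genes called higher and 4.21% called lower. On day 6, *Maf* and *Mitf* were called higher, 2 of 9 members beside 2.72% of 9842 genes called higher and 4.82% called lower. The lean of the day 6 calls over all genes depended on the scaling, with 268 higher and 474 lower as fitted, 323 higher and 285 lower with median centring, and 342 higher and 310 lower with quantile normalization. No member was called lower in any of these fits. The median log2 difference of the members (DKI against WT) was 0.84 on day 3 and 1.22 on day 6, where the median over all fitted genes was -0.11 and -0.17.

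**Figure D1:**
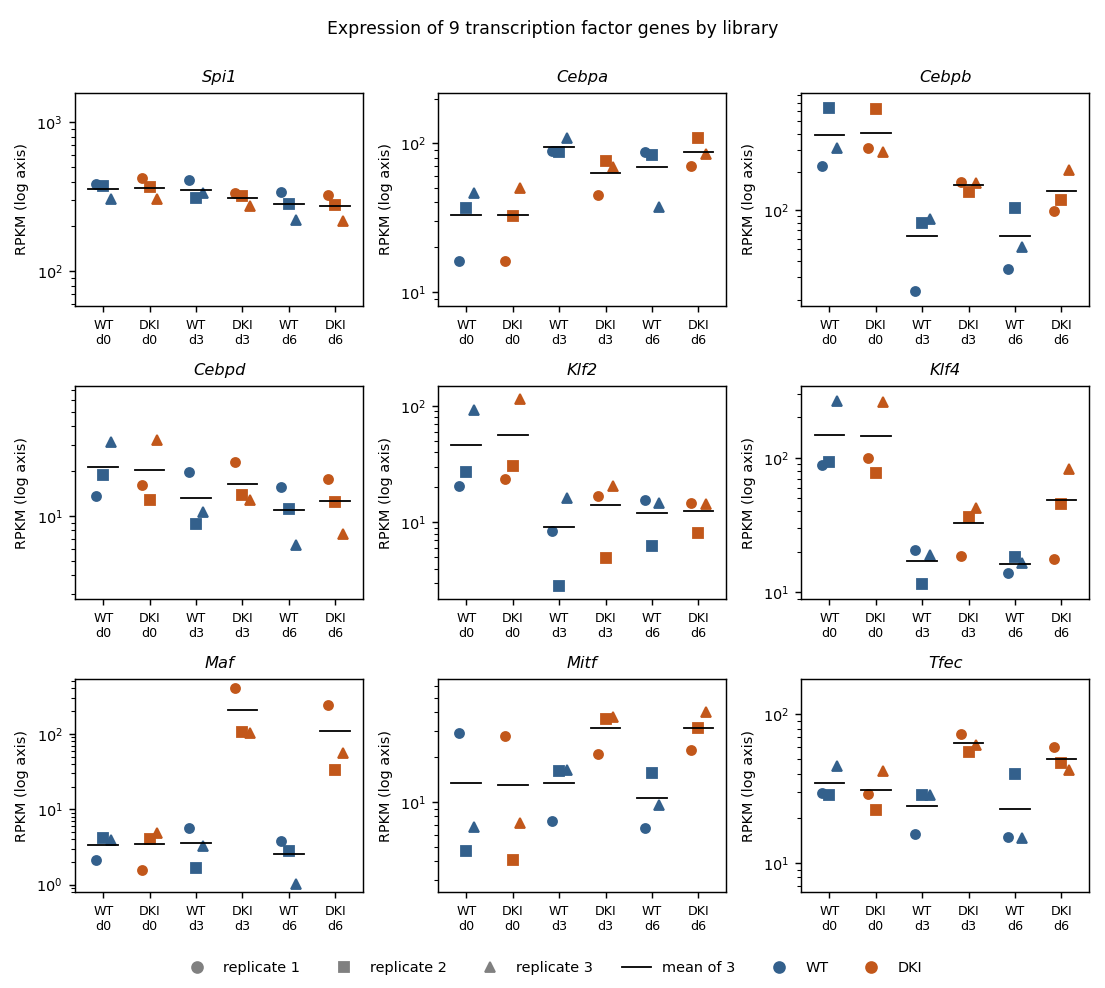
RPKM (log axis) of the 9 genes in each of the 18 libraries, WT in blue and DKI in orange, with the replicate shown by the symbol and the mean of 3 by a bar. Maf sits between 33.5 and 408 RPKM in DKI cells with GM-CSF and between 1.03 and 5.68 RPKM in all other groups.

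*Maf* was a low gene in unstimulated monocytes. Its level on day 0 was 2.10, 4.17 and 3.93 RPKM in WT replicates 1 to 3 and 1.55, 4.04 and 4.78 RPKM in DKI replicates 1 to 3. On day 3 it was 5.68, 1.68 and 3.28 RPKM in WT cells and 408, 105 and 102 RPKM in DKI cells. On day 6 it was 3.80, 2.83 and 1.03 RPKM in WT cells and 237, 33.5 and 56.2 RPKM in DKI cells. The lowest DKI library of either day thus lay above the highest WT library of any day, and the groups did not overlap, beside 13.4% (day 3) and 10.6% (day 6) of genes higher without overlap. The log2 difference was 5.28 (SE 0.61, adjusted p = 0.00966) on day 3, a fold change of 38.8. On day 6 it was 4.54 (SE 0.73, adjusted p = 0.0252), a fold change of 23.3.

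DKI replicate 1 had the highest *Maf* level on both days, 3.99 times that of the lowest DKI library on day 3 and 7.09 times on day 6. Without that library the log2 difference of *Maf* was 4.62 on day 3 (adjusted p = 0.00745) and 3.73 on day 6 (adjusted p = 0.0269). Without replicate 1 of both genotypes it was 4.95 on day 3 (adjusted p = 0.0164) and 3.99 on day 6, where the call was lost (adjusted p = 0.0640). The day 6 call was also lost without WT replicate 1 (adjusted p = 0.0785), WT replicate 3 (0.0948) or DKI replicate 3 (0.0774), while the log2 difference stayed between 3.73 and 5.13. The ratio of DKI to WT in same-numbered pairs was 31.1 to 71.8 on day 3 and 11.8 to 62.5 on day 6, against 0.739 to 1.22 on day 0.

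The change of *Maf* with GM-CSF differed between the genotypes. In DKI cells it rose by 5.29 on the log2 scale to day 3 (SE 0.59, adjusted p = 0.00220) and by 4.21 to day 6 (SE 0.71, adjusted p = 0.00579). Without DKI replicate 1 of day 3 or day 6 these values were 4.63 (adjusted p = 0.00153) and 3.40 (adjusted p = 0.00516). In WT cells the log2 changes were -0.02 (SE 0.37, adjusted p = 0.975) and -0.36 (SE 0.36, adjusted p = 0.437). The difference between these changes, tested as an interaction over 12 libraries, was 5.31 (SE 0.77, adjusted p = 0.00549) to day 3 and 4.57 (SE 0.89, adjusted p = 0.0243) to day 6. *Maf* was the one member of 9 called in each of these interactions, beside 2.91% of 10212 genes to day 3 and 2.8% of 10353 genes to day 6. In the order of group means, DKI day 3 (205 RPKM ± 176 SD, n = 3) came before DKI day 6 (109 ± 112 SD, n = 3), and these overlapped. Next were WT day 3 (3.54 ± 2.01), DKI day 0 (3.46 ± 1.69), WT day 0 (3.40 ± 1.13) and WT day 6 (2.55 ± 1.40), each overlapping its neighbour but all apart from the 2 DKI groups with GM-CSF.

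*Mitf* and *Tfec* were higher in all DKI libraries than in all WT libraries on both days with GM-CSF, but by smaller amounts than *Maf* and with calls that depended on the fit. *Tfec* is a family member expressed mainly in macrophages and osteoclasts. Its level on day 0 was 29.7, 28.5 and 44.8 RPKM in WT and 29.2, 22.7 and 41.5 RPKM in DKI cells. On day 3 it was 15.6, 28.6 and 28.5 RPKM in WT and 74.2, 55.7 and 62.4 RPKM in DKI cells. The lowest DKI library was 55.7 RPKM and the highest WT library 28.6 RPKM, and *Tfec* was called with a log2 difference of 1.41 (SE 0.27, adjusted p = 0.0320). On day 6 it was 14.9, 39.5 and 14.8 RPKM in WT and 60.6, 47.0 and 42.4 RPKM in DKI cells, a log2 difference of 1.22 that was not called (SE 0.39, adjusted p = 0.102). The groups did not overlap on day 6 either, but WT replicate 2 came close to the DKI libraries. Without WT replicate 2 the day 6 difference was 1.67 (adjusted p = 0.0215). The day 3 call was lost without any one of the 6 libraries (adjusted p between 0.0565 and 0.0739, log2 differences of 1.13 to 1.55) and with the replicate number as a block (adjusted p = 0.0706).

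*Mitf* encodes the founding member of the family, needed for osteoclasts, mast cells and pigment cells. On day 0 replicate 1 held far more of it than the others in both genotypes, with 29.0, 4.65 and 6.76 RPKM in WT and 27.5, 4.08 and 7.20 RPKM in DKI libraries. The basophil genes *Mcpt8* and *Prss34* were also highest in replicate 1, at 55.8 and 60.9 RPKM in WT and at 26.2 and 29.5 RPKM in DKI cells. The eosinophil gene *Prg2* was instead lowest in replicate 1 of each genotype (169 RPKM for WT, 120 RPKM for DKI). The part of these in the *Mitf* level was not tested. The summed level of the 5 mast cell, basophil and eosinophil genes was 296 to 504 RPKM in WT and 169 to 358 RPKM in DKI day 0 libraries. It was at most 47.3 RPKM in WT and 41.3 RPKM in DKI libraries on day 3, and 121 and 52.4 RPKM on day 6. *Mitf* was 7.39, 16.2 and 16.4 RPKM in WT and 21.0, 36.0 and 37.1 RPKM in DKI libraries on day 3, and 6.65, 15.6 and 9.56 RPKM in WT and 22.3, 31.5 and 40.4 RPKM in DKI libraries on day 6. The groups did not overlap on either day, and replicate 1 was lowest in both genotypes on both days. The log2 difference was 1.21 on day 3 (SE 0.36, adjusted p = 0.0978) and 1.52 on day 6 (SE 0.34, adjusted p = 0.0472).

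The ratio of DKI to WT *Mitf* in same-numbered pairs spanned 2.22 to 2.84 on day 3, 2.03 to 4.23 on day 6 and 0.877 to 1.07 on day 0. With the replicate number as a block, *Mitf* was called on day 3 (adjusted p = 0.0266), and its change from day 0 differed between genotypes by 1.26 to day 3 (adjusted p = 0.00488, without the block 0.610) and by 1.57 to day 6 (adjusted p = 0.0166, without the block 0.463). Without the block and with 1 library left out, these *Mitf* differences were 0.53 to 1.97 and 0.84 to 2.28. None was called (adjusted p up to 0.852 and 0.708). The interaction of *Tfec* to day 3 was 1.56 with an adjusted p of 0.0704, and 0.0386 with the block. Without replicate 1 of both genotypes the log2 difference of *Mitf* was 1.12 on day 3 (adjusted p = 0.0286) and 1.47 on day 6 (adjusted p = 0.152). The day 6 call of *Mitf* was lost without WT replicate 1, WT replicate 3 or any one of the 3 DKI libraries (adjusted p up to 0.154). It was also lost with voom on recovered reads (adjusted p = 0.0583) and in a fit of all 18 libraries (adjusted p = 0.112). The range of log2 differences without one library was 0.86 to 1.47 on day 3 and 1.26 to 1.81 on day 6.

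**Figure D2:**
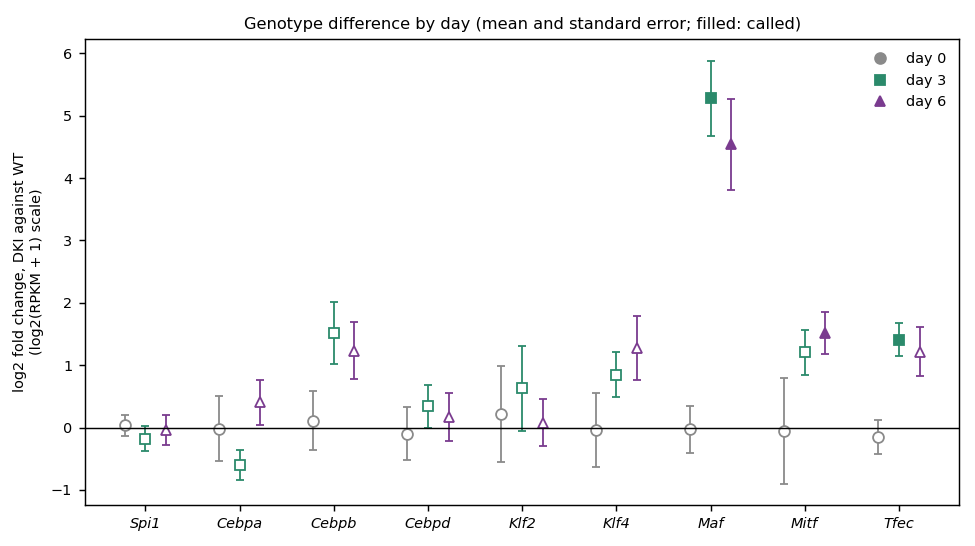
Log2 difference DKI against WT (log2(RPKM + 1) scale) of the 9 genes on days 0, 3 and 6, with bars of 1 standard error. Filled symbols passed the test: Maf on days 3 and 6, Tfec on day 3 and Mitf on day 6.

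The C/EBP genes did not differ between the genotypes by the test on any day, although *Cebpb* and *Cebpa* did not overlap on day 3. *Cebpb* was 222, 641 and 308 RPKM in WT and 309.8, 619 and 288 RPKM in DKI cells on day 0. It was 23.2, 79.1 and 85.5 RPKM in WT and 168, 138 and 165 RPKM in DKI cells on day 3, and 34.6, 104 and 52.0 RPKM in WT and 99.1, 121 and 208 RPKM in DKI cells on day 6. The DKI libraries were thus all higher on day 3, and on day 6 WT replicate 2 lay just above DKI replicate 1. The log2 difference was 1.51 on day 3 (SE 0.49, adjusted p = 0.119) and 1.23 on day 6 (SE 0.46, adjusted p = 0.138). Without WT replicate 1, the lowest library, the day 3 difference was 0.92 (adjusted p = 0.0945). From day 0, *Cebpb* fell in both genotypes. In WT cells it fell by 2.68 on the log2 scale to day 3 (SE 0.58, adjusted p = 0.00881) and by 2.60 to day 6 (SE 0.50, adjusted p = 0.00506). Without WT day 3 replicate 1 the fall to day 3 was by 2.09 (adjusted p = 0.0142). In DKI cells it fell by 1.28 to day 3 (SE 0.32, adjusted p = 0.0243) and by 1.48 to day 6 (SE 0.39, adjusted p = 0.0238). The difference between the genotypes in this fall was not called (interaction 1.40, SE 0.73, adjusted p = 0.397 to day 3).

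The falls of *Cebpb* in DKI cells depended on single libraries. The day 3 call was lost without DKI day 3 replicate 2 or replicate 3, and the day 6 call without DKI day 0 replicate 2 or DKI day 6 replicate 1 or 2 (adjusted p up to 0.0695 and 0.0652). The log2 change stayed between -1.48 and -0.93 to day 3 and between -1.79 and -1.13 to day 6.

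*Cebpa* went the other way with time. It was 16.2, 36.7 and 46.3 RPKM in WT and 16.2, 32.6 and 49.9 RPKM in DKI cells on day 0. On day 3 it was 88.3, 87.5 and 108 RPKM in WT and 44.6, 76.0 and 69.6 RPKM in DKI cells, so that every DKI library was lower, beside 22.9% of genes lower without overlap. The log2 difference of -0.60 was not called (SE 0.24, adjusted p = 0.173). Without DKI replicate 1 it was -0.37 and not called. On day 6 it was 87.9, 83.9 and 37.2 RPKM in WT and 70.0, 108 and 85.1 RPKM in DKI cells, which overlapped (log2 difference 0.40, adjusted p = 0.50). *Cebpa* rose in WT cells to day 3 (log2 1.60, SE 0.36, adjusted p = 0.0105) and in DKI cells to day 6 (log2 1.5, SE 0.40, adjusted p = 0.0245). The log2 change was 1.08 in WT cells to day 6 (adjusted p = 0.0902) and 1.02 in DKI cells to day 3 (adjusted p = 0.0990). The WT day 6 value depended on single libraries. It was 1.47 without WT day 6 replicate 3 (adjusted p = 0.0387) and 0.65, not called, without WT day 0 replicate 1. Its adjusted p reached 0.237 with 1 library left out. The DKI day 6 call was lost without DKI day 0 replicate 2 or DKI day 6 replicate 2 or 3 (adjusted p up to 0.0656).

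*Cebpd* had the lowest mean of the C/EBP members in every group. It spanned 13.6 to 31.5 RPKM (median 18.9) in WT and 12.7 to 32.1 RPKM (median 16.0) in DKI cells on day 0, and 6.39 to 19.8 RPKM in WT and 7.52 to 22.9 RPKM in DKI cells over days 3 and 6. All groups overlapped, no comparison called it, and its log2 differences between the genotypes were -0.10, 0.34 and 0.17 on days 0, 3 and 6 (adjusted p of 0.565 or more). Its change in WT cells from day 0 to day 6 was called without WT day 0 replicate 1 (log2 -1.16, adjusted p = 0.0483). The DKI level was nonetheless the higher in all 3 same-numbered pairs on days 3 and 6, by ratios of 1.15 to 1.56 and 1.11 to 1.18.

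KLF2 and KLF4 genes were high in unstimulated monocytes and lower in cultured cells. *Klf4* was 89.0, 93.1 and 262 RPKM in WT and 99.9, 77.5 and 258 RPKM in DKI cells on day 0, with replicate 3 far above the others in both genotypes. It was 20.8, 11.6 and 19.1 RPKM in WT and 18.5, 36.6 and 42.7 RPKM in DKI cells on day 3, and 14.0, 18.3 and 16.6 RPKM in WT and 17.7, 45.1 and 82.9 RPKM in DKI cells on day 6. DKI replicate 1 lay within the WT range on both days and the other DKI libraries above it. *Klf4* fell in WT cells by 2.88 on the log2 scale to day 3 (SE 0.44, adjusted p = 0.00232) and by 2.92 to day 6 (SE 0.41, adjusted p = 0.00139). In DKI cells it fell by 2.00 to day 3 (SE 0.51, adjusted p = 0.0247), and the change of -1.61 to day 6 was not called (SE 0.64, adjusted p = 0.0844). Without DKI day 6 replicate 3 that change was -2.11 and was called (adjusted p = 0.0482). The genotype difference was 0.84 on day 3 (SE 0.36, adjusted p = 0.198) and 1.27 on day 6 (SE 0.51, adjusted p = 0.166). Without DKI replicate 1 the day 6 difference was 1.85 (adjusted p = 0.0437), and without DKI replicate 3 it was 0.77 and not called. The adjusted p on day 6 reached 0.345 with 1 library left out. The fall in DKI cells to day 3 was not called without DKI day 0 replicate 1 or DKI day 3 replicate 1 (adjusted p = 0.0532 at most).

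*Klf2* was 20.5, 27.3 and 92.4 RPKM in WT and 23.4, 30.6 and 114 RPKM in DKI cells on day 0, again highest in replicate 3. It was 8.45, 2.84 and 16.1 RPKM in WT and 16.9, 4.92 and 20.5 RPKM in DKI cells on day 3, and 15.5, 6.27 and 14.6 RPKM in WT and 14.5, 8.16 and 14.5 RPKM in DKI cells on day 6. The genotypes overlapped on every day, with log2 differences of 0.22, 0.63 and 0.08. *Klf2* fell in WT cells by 2.17 on the log2 scale to day 3 (SE 0.69, adjusted p = 0.0375) and in DKI cells by 1.78 to day 6 (SE 0.58, adjusted p = 0.0472). The change was -1.64 in WT cells to day 6 (adjusted p = 0.0502) and -1.76 in DKI cells to day 3 (adjusted p = 0.0959). These calls were lost without any of 4 libraries each. For WT day 3 these were WT day 0 replicates 2 and 3 and WT day 3 replicates 1 and 2 (adjusted p up to 0.101), and for DKI day 6 they were DKI day 0 replicate 2 and all 3 DKI day 6 libraries (adjusted p up to 0.118). Without replicate 3 of day 0, where *Klf2* was highest, the changes were -1.53 in WT cells to day 3 (adjusted p = 0.0830) and -1.09 in DKI cells to day 6 (adjusted p = 0.0438). The WT day 6 change was called without WT day 0 replicate 1 (adjusted p = 0.0299).

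*Spi1* was the most even member. Its level was 385, 371 and 306 RPKM in WT and 425, 367 and 304 RPKM in DKI cells on day 0. It was 413, 309 and 338 RPKM in WT and 337, 319 and 276 RPKM in DKI cells on day 3, and 339, 284 and 220.0 RPKM in WT and 324, 279 and 217 RPKM in DKI cells on day 6. All 6 groups overlapped their neighbours in the order of means, from 365 RPKM ± 60.5 (SD, n = 3) in DKI day 0 to 273 ± 53.6 (SD, n = 3) in DKI day 6. No comparison called it, and the log2 differences between the genotypes were 0.04 (SE 0.17), -0.18 (SE 0.20) and -0.04 (SE 0.25) on days 0, 3 and 6. With GM-CSF, *Spi1* had the highest mean of the 9 genes in every group, while on day 0 *Cebpb* had the highest (390.3 RPKM in WT and 405 in DKI cells, against 354 and 365 for *Spi1*), with overlapping ranges.

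Same-numbered WT and DKI libraries deviated from their group means together, most closely on day 0. Over the 9 members and 3 pairs of day 0, the ratio of DKI to WT stayed between 0.672 and 1.40, while the highest WT library exceeded the lowest by a factor of 1.26 (*Spi1*) to 6.24 (*Mitf*). On days 3 and 6, 6 of the 9 members were higher in DKI cells in all 3 pairs, against 1 on day 0. Over all fitted genes, 20.9% on day 3, 18.4% on day 6 and 10.0% on day 0 were higher in all 3 pairs, and 36.5%, 45.3% and 12.3% were lower. On day 3 these were *Cebpb*, *Cebpd*, *Klf2*, *Maf*, *Mitf* and *Tfec*, and on day 6 *Cebpb*, *Cebpd*, *Klf4*, *Maf*, *Mitf* and *Tfec*. In all 3 pairs *Tfec* was lower on day 0, *Cebpa* on day 3 (ratios of 0.505 to 0.868) and *Spi1* on day 6 (ratios of 0.954 to 0.986).

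**Figure D3:**
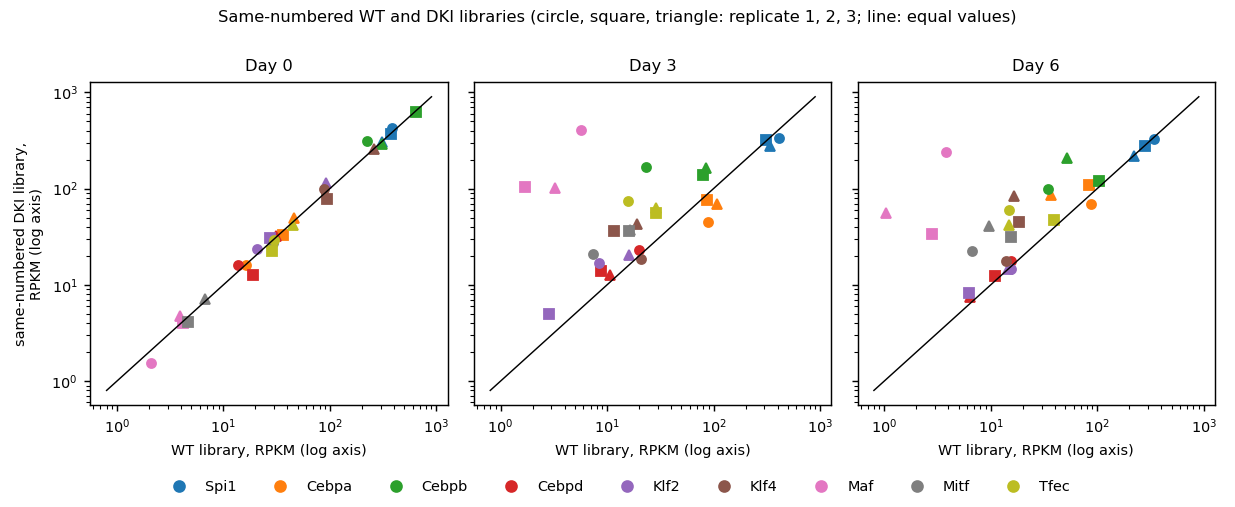
RPKM of each member in a DKI library against the same-numbered WT library (both axes log) on days 0, 3 and 6, with a line at equal values. The day 0 points lie along the line, at ratios of 0.672 to 1.40, and on days 3 and 6 the Maf points lie far above it, at ratios of 11.8 to 71.8.

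With GM-CSF, the members moved in both directions in each genotype. From day 0 to day 3, 4 of 9 members were called in WT cells (*Cebpa* higher, and *Cebpb*, *Klf2* and *Klf4* lower), beside 43.1% of 9938 genes. In DKI cells 4 of 9 were called over the same days (*Maf* and *Tfec* higher, *Cebpb* and *Klf4* lower), beside 34.2% of 9922 genes. From day 0 to day 6, 2 of 9 members were called in WT cells (*Cebpb* and *Klf4* lower), beside 45% of 10093 genes. In DKI cells 4 of 9 were called (*Cebpa* and *Maf* higher, *Cebpb* and *Klf2* lower), beside 40.1% of 9995 genes. The counts of members are not set apart from these shares. *Tfec* rose in DKI cells by 1.05 on the log2 scale to day 3 (SE 0.25, adjusted p = 0.0203), a call lost without DKI day 0 replicate 1 or 2 or DKI day 3 replicate 3 (adjusted p up to 0.0675). In WT cells the *Tfec* change to day 3 was -0.50 (SE 0.29, adjusted p = 0.182). Without WT day 6 replicate 2 the WT change to day 6 was -1.13 (adjusted p = 0.0131), against -0.67 (adjusted p = 0.188) with it. The *Mitf* change in DKI cells was 1.57 to day 3 (SE 0.62, adjusted p = 0.0914) and 1.58 to day 6 (SE 0.61, adjusted p = 0.0784). Without DKI day 0 replicate 1, the library with the high *Mitf* level, these were 2.28 (adjusted p = 0.0138) and 2.29 (adjusted p = 0.00975). The lowest values with 1 library left out were 1.04 and 1.05 (adjusted p up to 0.236 and 0.207). Between days 3 and 6, 0 of 9 members were called in either genotype or in the interaction and 0 had an unadjusted p under 0.05, beside 0% of genes called and 7.51% (WT), 0.975% (DKI) and 0.891% (interaction) with an unadjusted p under 0.05. Limma's voom called 0 genes there too. A fit of all 18 libraries called 16 genes in WT cells, all higher on day 6, and 0 in DKI cells or the interaction.

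**Figure D4:**
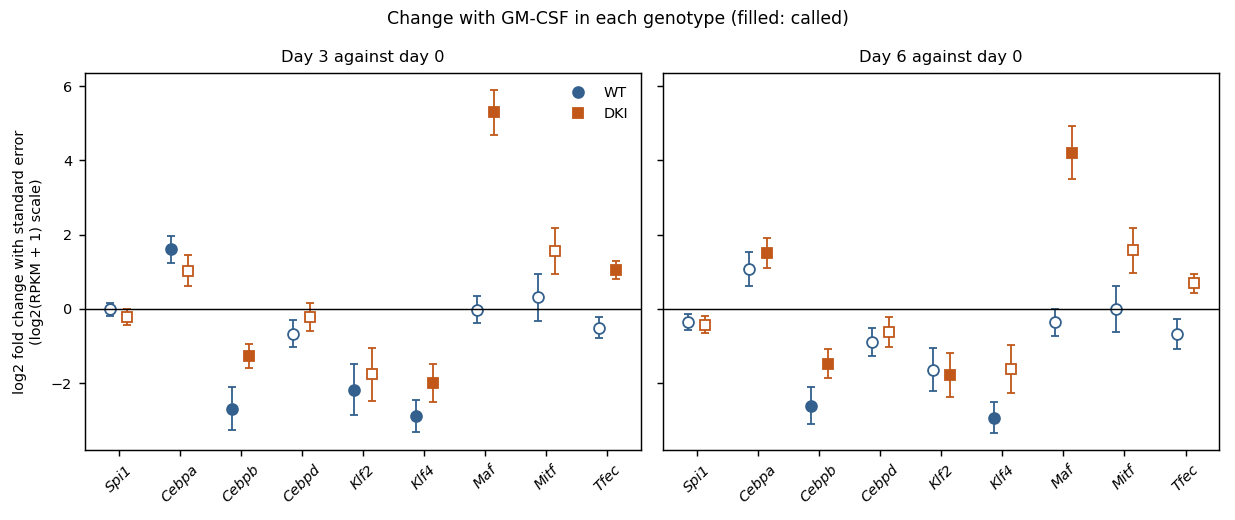
Log2 change from day 0 to day 3 (left) and to day 6 (right) of the 9 genes in WT (circles) and DKI cells (squares), on the log2(RPKM + 1) scale with bars of 1 standard error, filled where the test was passed. Maf is the gene whose DKI values, 5.29 and 4.21, lie far from the WT values of -0.02 and -0.36.

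Relatives of the members and genes known as their targets were counted in lists. Of the relatives fitted on day 3, 0 of 4 C/EBP genes, 0 of 3 PU.1 genes, 0 of 7 KLF genes and 0 of 1 MiT/TFE gene (*Tfeb*) were called, and on day 6 0 of 4, 0 of 4, 0 of 8 and 0 of 1. *Tfe3* was not analysed here. Of 5 MAF relatives, 1 was called lower on both days and none higher, beside the 4.21% and 4.82% of all genes called lower. This was *Maff*, which encodes a small MAF protein that lacks an activation domain. It was 20.5, 30.8 and 20.5 RPKM in WT and 5.20, 6.07 and 4.25 RPKM in DKI cells on day 3, a log2 difference of -2.0 (SE 0.21, adjusted p = 0.00692). On day 6 its log2 difference was -1.73 (SE 0.29, adjusted p = 0.0273). *Maff* was thus lower without overlap on the days when *Maf* was higher. The day 6 call of *Maff* was lost without any of 5 libraries, DKI replicate 2 being the exception (adjusted p up to 0.101).

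Among the target lists, calls were all in the direction of higher levels in DKI cells. Some of their genes entered the test only because the DKI mean was above 2 RPKM, and counts that hold such genes are descriptions only. The counts and medians of these 4 lists stand beside 3.21% (day 3) and 2.72% (day 6) of all fitted genes called higher and beside median log2 differences over all fitted genes of -0.11 and -0.17. Of 9 genes linked to MAF, 1 was called on day 3 and 2 on day 6. The mannose receptor gene *Mrc1* was 4.47 to 48.2 RPKM in WT and 276 to 417 RPKM in DKI cells on day 3 (log2 difference 4.45, adjusted p = 0.0236), and its difference was 3.29 on day 6 (adjusted p = 0.00926). The folate receptor gene *Folr2* was 0.302 to 0.820 RPKM in WT and 13.3 to 151 RPKM in DKI cells on day 6 (log2 difference 4.66, adjusted p = 0.0303). *Folr2* and *Cd163* of this list entered the test only through the DKI mean on both days. Without DKI replicate 1 the day 6 difference of *Folr2* was 3.63 (adjusted p = 0.0155), and without WT replicate 2 the day 3 difference of *Mrc1* was 3.69 (adjusted p = 0.0441). Other single libraries moved them upwards, to 5.34 for *Folr2* without DKI replicate 3 (adjusted p = 0.0598) and to 5.28 for *Mrc1* without WT replicate 1 (adjusted p = 0.0219). Of the genes linked to MiT/TFE proteins, 1 of 10 on day 3 and 1 of 11 on day 6 was called, the lysosomal membrane gene *Lamp1*, with log2 differences of 1.92 (adjusted p = 0.0308) and 1.47 (adjusted p = 0.0453). With the replicate block *Lamp1* was not called (adjusted p = 0.0542 and 0.0574). The medians of this list were 1.41 and 0.99. On day 6, *Rragd* of this list entered the test only through the DKI mean.

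Of 3 genes linked to KLF2 or KLF4, 2 were called on both days. The sphingosine phosphate receptor gene *S1pr1* was 0.0616 to 0.509 RPKM in WT and 5.32 to 8.24 RPKM in DKI cells on day 3 (log2 difference 2.58, adjusted p = 0.00616), and its difference was 3.16 on day 6 (adjusted p = 0.0330), or 3.89 without DKI replicate 2 (adjusted p = 0.00576). The thrombomodulin gene *Thbd* had log2 differences of 2.36 (adjusted p = 0.00458) and 2.24 (adjusted p = 0.0114). Both genes entered the test only through the DKI mean on both days, and the remaining gene was not called. Of 9 targets of PU.1 and C/EBP proteins, 2 were called on both days: the G-CSF receptor gene *Csf3r*, with log2 differences of 3.14 (adjusted p = 0.0426) and 2.98 (adjusted p = 0.0362), and the lysozyme gene *Lyz2*, with 2.88 (adjusted p = 0.0468) and 1.95 (adjusted p = 0.0197). Without DKI replicate 1 the difference of *Csf3r* was 2.41 on day 3 (adjusted p = 0.0282, and 3.72 without DKI replicate 2) and 2.36 on day 6 (adjusted p = 0.0465). The median of this list was 1.64 on day 3, where all 9 genes had both means above 2 RPKM. On day 6, *Csf3r* and 2 other genes of the list entered only through the DKI mean. *Lyz2* has a close copy, *Lyz1*, and its level is uncertain for that reason. On day 3, calls were lost without any 1 of 6 libraries for *Lyz2*, of 4 for *Csf3r* and *Lamp1* and of 3 for *Mrc1*. On day 6 they were lost without any 1 of 5 libraries for *Lamp1* and *S1pr1*, of 4 for *Csf3r*, *Lyz2* and *Folr2* and of 2 for *Thbd*.

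Markers of other cells moved with the genotype. The summed level of 6 neutrophil genes (*Ly6g*, *Camp*, *Ltf*, *Ngp*, *Mmp8*, *Retnlg*) was 109 to 721 RPKM in WT and 732 to 1346 RPKM in DKI cells on day 3, and 101 to 500.4 RPKM in WT and 487 to 859 RPKM in DKI cells on day 6. Most of the day 3 sum in DKI cells was *Mmp8*, a neutrophil collagenase gene, at 83.7 to 283 RPKM in WT and 372 to 1113 RPKM in DKI cells (log2 difference 2.02, adjusted p = 0.0958). *Ngp*, *Camp* and *Ltf* overlapped between the genotypes on both days, with log2 differences of 1.98, 0.96 and 1.55 on day 3 and 0.08, 0.44 and 0.38 on day 6. *Retnlg* was the one gene of the 6 called, on day 3 (log2 difference 2.49, adjusted p = 0.0213), and was higher without overlap on day 6 (2.08, adjusted p = 0.172). *Ly6g* was higher without overlap on day 3 (1.78, adjusted p = 0.0710). *Retnlg* and *Ly6g* entered the test only through the DKI mean. The summed monocyte genes were 758 to 1139 RPKM in WT and 1394 to 2239 RPKM in DKI cells on day 3, and 602 to 1070.0 and 1346 to 1596 RPKM on day 6. Of these sums, the genotypes did not overlap in the monocyte sum on either day or, by a narrow margin, in the neutrophil sum on day 3. The monocyte sum was mostly *Itgam* and *Csf1r*, integrin and cytokine receptor genes that macrophages also express, with log2 differences of 0.63 and 0.83 on day 3 and 0.82 and 0.82 on day 6, none of them called. The monocyte gene *Ccr2* overlapped between the genotypes, with log2 differences of -0.41 and -0.50, and *Cx3cr1* was at most 0.0625 RPKM in DKI and at least 0.106 RPKM in WT cells on day 6. On day 3 *Ly6c2* was 11.2, 39.8 and 17.1 RPKM in WT cells, below all 3 DKI libraries given above, a log2 difference of 2.78 that was not called (adjusted p = 0.16). It was 13.1, 12.9 and 8.66 RPKM in WT and 158, 10.5 and 5.30 RPKM in DKI cells on day 6, high in DKI replicate 1 alone. The 6 progenitor genes differed in direction. *Prtn3*, *Mpo*, *Elane* and *Ctsg* had log2 differences of 2.51, 1.97, 1.76 and 1.67 on day 3, none of them called, with *Prtn3* higher without overlap. On day 6 these 4 genes entered the test only through the DKI mean, none was called, and the DKI means of *Elane* (25.1, 0.279 and 0.126 RPKM) and *Mpo* (10.5, 0.0403 and 0 RPKM) rested on replicate 1. *Cd34* and *Kit* had lower means in DKI cells on both days. On each day 1 gene of this list, *Cd34* or *Kit*, entered the test only through the WT mean. *Cd34* was called lower on day 6 (log2 difference -1.83, adjusted p = 0.0294), and *Kit* was lower without overlap on both days but not called (log2 differences -1.17 and -1.64, adjusted p = 0.103 and 0.0559). The part of these in the differences of *Maf*, *Mitf*, *Tfec*, *Csf3r* and *Lyz2* was not tested. *Bst2*, a gene of plasmacytoid dendritic cells and of interferon responses, was highest in DKI replicate 1 on both days (1231 and 954 RPKM), the library with the highest *Maf* level, while the plasmacytoid dendritic cell gene *Siglech* did not pass 0.532 RPKM in any library. The 6 B cell genes were low but their sums did not overlap, at 0.364 to 0.473 RPKM for WT and 1.26 to 7.10 RPKM for DKI on day 3 and 0.196 to 0.780 and 1.21 to 3.53 RPKM on day 6. *Cd79b*, a B cell receptor gene, was higher in DKI cells without overlap on both days but not called (log2 differences 1.70 and 1.29, adjusted p = 0.0821 and 0.0682), and entered the test only through the DKI mean. The part of B cell genes in the members' differences was not tested. T and NK cell genes summed to at most 10.0 RPKM on days 3 and 6, and *Hba-a1*, *Hba-a2* and *Hbb-bs* were listed at 0.

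**Figure D5:**
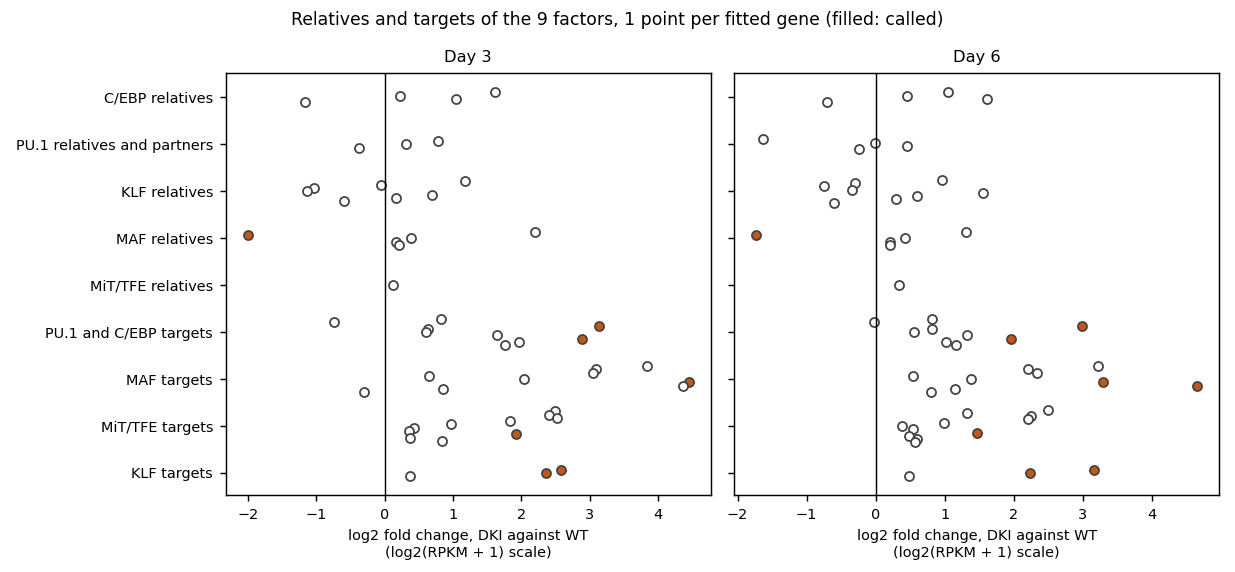
Log2 difference DKI against WT (log2(RPKM + 1) scale) on day 3 (left) and day 6 (right) for each fitted gene of the lists of relatives and targets, filled where the test was passed. Maff is the filled point left of 0, at -2.0 and -1.73, and the filled target genes all lie between 1.47 and 4.66.

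The genes whose levels followed each member most closely were named by Pearson's r of log2(RPKM + 1) over the 18 libraries, among 10417 genes, as a description in which genotype, day and library are shared. *Maf* was followed most closely by *Enpp1* (r = 0.98), *Itsn1* (0.975) and *Tlr1* (0.966), and *Tfec* by *Tcirg1* (0.918), a subunit gene of the vacuolar proton pump, *Chpt1* (0.917) and *Hk3* (0.899). *Mitf* was followed by *Tnfrsf26* (0.925), *Iqsec1* (0.914) and *Ahnak2* (0.910). *Klf4* was followed by its relative *Klf11* (0.954), 1700024F20Rik (0.950) and *Akirin2* (0.949), and *Klf2* by *Cln6* (0.911), *Palm* (0.910) and *Them6* (0.906). *Cebpb* was followed by *Kansl2* (0.951), *Arid3a* (0.939) and *Rap1b* (0.930), *Cebpa* by *Mtfr1l* (0.955), *Dcun1d2* (0.943) and *Mvb12b* (0.925), and *Cebpd* by *Ocel1* (0.867), *Pgghg* (0.861) and *Rnpep* (0.860). For *Spi1*, the values were lowest, with *Ddx41* (0.866), *Mrpl54* (0.842) and *Sh3bp5l* (0.826). No member was among the 3 genes nearest to another member.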

How the data were processed

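RNA-seq libraries were made from mRNA of 18 samples. Single-end reads had been aligned to mm10 with Subread and assigned to RefSeq genes by featureCounts, and the authors deposited the RPKM values used here. Tool versions, strandedness and the treatment of multi-mapping reads are not given in the sources used here. All columns were used (0 columns of no sample).

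Values were analysed as log2(RPKM + 1) with limma 3.58.1 in R 4.3.3 (lmFit, eBayes with a trend), using the libraries of the groups compared and genes with a mean above 2 RPKM in a group. Genes were called at a Benjamini-Hochberg adjusted p under 0.05, over all fitted genes, and a fold change above 1.5. The fit was tested on simulated data. Python 3.11.15 (pandas 2.3.3, numpy 2.4.6, matplotlib 3.10.9) was used for the rest.

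Whole reads were recovered from the RPKM values. Library totals came from the smallest values of 1144 single-exon receptor genes shorter than 1150 bases (4 to 12 genes at 1 read in a library), and a gene length that gave whole reads in all libraries, within 0.05 of a read, was found for 10417 of 10417 genes (100%). These reads were used for limma's voom as an alternative chosen after seeing the data, which called 523 genes on day 3 and 466 on day 6 between the genotypes.

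Replicate numbers were taken from the labels, and whether the series' 3 independent experiments used separate mice for each library is not stated, so p-values measure the spread between these libraries. Libraries sharing a number and a day moved together across the genotypes (correlations of deviations from group means of 0.686 to 0.865 on day 0, 0.163 to 0.369 on day 3 and 0.338 to 0.413 on day 6), so the numbers pair the genotypes within a day. Across days they did so between days 3 and 6 but not from day 0.

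The members and gene lists were chosen with earlier results of these data known. The text names all 9 members, per list up to 3 called genes with the largest change between the genotypes, and the 3 genes most correlated with each member. Of 115 list genes, 109 were in the table and the others were not analysed here. An item of the lists is not reported here. Alternatives were another pseudocount (0.1), no filter, median centring, quantile normalization, all 18 libraries in one fit, the replicate block, no replicate 1 of days 3 and 6 (the earlier year in the library name) and each library left out.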

Additional observations from a re-analysis of the deposited data

Results flagged for a closer look

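The change of *Maf* with GM-CSF differed between the genotypes. To day 3 the change in DKI cells exceeded that in WT cells by 5.31 on the log2 scale (SE 0.77, limma interaction, Benjamini-Hochberg adjusted p = 0.00549), and to day 6 by 4.57 (SE 0.89, adjusted p = 0.0243). The level was higher in DKI than in WT cells in 3 of 3 same-numbered pairs on both days and in 1 of 3 on day 0. DKI replicate 1, the library with the highest *Maf* level, was not needed for either call: without DKI day 3 replicate 1 the difference was 4.65, and without DKI day 6 replicate 1 it was 3.76 (adjusted p = 0.0144). To day 3 the adjusted p stayed between 0.00331 and 0.0199 with any of the 12 libraries left out. To day 6 the call was lost without WT day 0 replicate 2 (adjusted p = 0.0662), WT day 0 replicate 3 (0.0622), DKI day 0 replicate 1 (0.0590), DKI day 0 replicate 2 (0.0611) or WT day 6 replicate 3 (0.0639), and with voom on recovered reads (0.0802).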

How the results depend on the processing

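The numbers of members called moved with the settings. Between the genotypes on day 3, 2 members were called, 1 without the filter and 1 without any 1 library. On day 6, 2 were called, 0 without the filter, 0 without the earlier-year libraries, 1 with voom on recovered reads and 0 to 3 without 1 library. Without 1 library the counts of members were 3 to 4 for WT day 3 against day 0, 2 to 4 for WT day 6, 2 to 4 for DKI day 3 and 1 to 5 for DKI day 6 against day 0, where 2 were called without the earlier-year libraries. In the interaction to day 3, 1 was called, and 3 with the replicate block, which raised the share of all genes called from 2.91% to 10.2%. To day 6, 1 was called, 2 with the replicate block (2.8% of all genes without and 13.5% with it), 0 with voom and 0 to 2 without 1 library. Over all genes, the 268 called higher and 474 called lower between the genotypes on day 6 became 90 to 984 in both directions together without 1 library and 38 without the earlier-year libraries. On day 3 the 313 higher and 410 lower became 197 to 715 and 369 in the same fits. Where the numbers do not pair libraries across days, the block gave other calls for 4 changes from day 0 and lost 1: *Klf2* (WT day 6, adjusted p = 0.0344, and DKI day 3, 0.0492), *Cebpa* (DKI day 3, 0.0388), *Klf4* (DKI day 6, 0.0290) and, lost, *Cebpb* (DKI day 3, 0.0503). Beside those given in the report, the block changed no other call. Without the filter the genotype calls of *Tfec* on day 3 (adjusted p = 0.0631) and of *Maf* (0.0576) and *Mitf* (0.0876) on day 6 were lost, as were those of *Klf2* (0.0766, WT day 3), *Klf4* (0.0502, DKI day 3) and *Klf2* (0.0887, DKI day 6) against day 0. *Klf2* in WT day 3 (0.0518) and in DKI day 6 (0.0902) was also lost with quantile normalization, which gained *Mitf* (0.0491) and *Tfec* (0.0239) in DKI day 6. Median centring lost *Cebpb* (0.0514) and *Klf2* (0.0766) and gained *Tfec* (0.0278) in DKI day 6. A pseudocount of 0.1 gained *Klf2* in WT day 6 (0.0481), and voom lost *Klf2* in DKI day 6 (0.0537), beside the *Mitf* and *Maf* calls given above. A fit of all 18 libraries gained *Tfec* between the genotypes on day 6 (0.0258), *Cebpa* in WT day 6 (0.0473) and *Klf4* (0.0255) and *Mitf* (0.0481) in DKI day 6, and lost the *Cebpb* fall to DKI day 3 (0.0586) and, as reported, *Mitf* between the genotypes on day 6. Without the earlier-year libraries, *Klf2* in WT day 3 (0.0793), *Klf4* in DKI day 3 (0.0532) and *Cebpb* (0.0643) and *Klf2* (0.0809) in DKI day 6 were lost. *Maf* on day 3 was called under every alternative (log2 difference 4.62 to 5.69). The cause of these moves was not tested. Centring on the median raised the genotype differences, as the median over all genes was -0.11 on day 3 and -0.17 on day 6.

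Signs changed only for values that were not called. With median centring these became 0.11 (*Spi1*, DKI against WT, day 6), 0.079 (*Spi1*) and 0.071 (*Maf*) for WT day 3 against day 0, 0.055 (*Klf2*, DKI day 6 against day 3), and 0.070 (*Spi1*) and 0.0072 (*Klf2*) in the interaction to day 6. With quantile normalization they became 0.036 (*Spi1*, DKI against WT, day 6), 0.042 (*Klf2*, DKI day 6 against day 3), and 0.014 (*Spi1*) and 0.033 (*Klf2*) in the interaction to day 6. Without the earlier-year libraries they became, for day 6 against day 3, -0.16 (*Cebpb*) and 0.21 (*Klf4*) in WT cells, 0.074 (*Cebpb*), 0.076 (*Klf2*) and -0.032 (*Mitf*) in DKI cells, and 0.23 (*Cebpb*) in the interaction. For DKI day 6 against day 3, *Klf2* became 0.00043 with a pseudocount of 0.1 and 0.011 with voom, and *Mitf* became -0.0036 with voom.

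With 1 library left out, log2 values that crossed 0 spanned these ranges. For DKI against WT on day 0, *Spi1* -0.078 to 0.16, *Cebpa* -0.45 to 0.40, *Cebpb* -0.24 to 0.54, *Cebpd* -0.47 to 0.21, *Klf2* -0.47 to 0.86, *Klf4* -0.55 to 0.47, *Maf* -0.26 to 0.33, *Mitf* -0.76 to 0.68, *Tfec* -0.37 to 0.053. For DKI against WT on day 6, *Spi1* -0.20 to 0.12, *Cebpd* -0.14 to 0.47, *Klf2* -0.30 to 0.33. For WT day 3 against day 0, *Spi1* -0.13 to 0.083, *Maf* -0.34 to 0.32, *Mitf* -0.17 to 1.04. For WT day 6 against day 0, *Mitf* -0.47 to 0.73. For WT day 6 against day 3, *Cebpb* -0.51 to 0.44, *Cebpd* -0.50 to 0.089, *Klf2* -0.044 to 1.03, *Klf4* -0.28 to 0.11, *Maf* -0.68 to 0.015, *Tfec* -0.62 to 0.058. For DKI day 3 against day 0, *Cebpd* -0.49 to 0.15. For DKI day 6 against day 3, *Cebpb* -0.51 to 0.022, *Klf2* -0.59 to 0.34, *Klf4* -0.11 to 0.97, *Mitf* -0.25 to 0.23. For the interaction of day 3 against day 0, *Klf2* -0.23 to 1.10. For the interaction of day 6 against day 0, *Spi1* -0.24 to 0.081, *Cebpd* -0.040 to 0.64, *Klf2* -0.78 to 0.55. For the interaction of day 6 against day 3, *Spi1* -0.024 to 0.30, *Cebpb* -0.64 to 0.31, *Cebpd* -0.49 to 0.13, *Klf2* -1.12 to 0.027, *Klf4* -0.075 to 1.01, *Tfec* -0.42 to 0.26.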
